A study of Mus musculus with 4 samples.

Results

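The 49 genes described here serve DNA replication and mitosis, and were divided by textbook role into 23 genes of the G1 phase and S phase (G1/S genes) and 26 genes of the G2 phase and mitosis (G2/M genes). They were taken by name: a probe set, the group of short probes that reads 1 transcript on an Affymetrix array, was a member when the platform annotation gave it exactly 1 gene symbol and that symbol was on the list. This gave 66 of the 12422 probe sets tested, for 49 of 8251 named genes. RNA came from cultured mouse embryonic fibroblasts of a mixed FVB;129Sv background that were all Men1 knockout. In 2 samples the cells had been complemented with Men1 (complemented cells), which encodes the nuclear scaffold protein menin, and in 2 they had received vector (vector cells), so every culture lacked the endogenous gene. The cells grew with 10% serum, were plated at 70% density and were collected 24 h later. The labels do not say whether the cells were 1 clone or line, which vector carried Men1, or whether the replicates were separate cultures, so the spread behind each p-value, that between replicate arrays, may be technical.

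Cells entering a division cycle first activate E2F factors, which turn on the genes for origin licensing, the replicative helicase and nucleotide supply. Later, a complex of B-Myb, MuvB and FoxM1 turns on the genes for the spindle, the kinetochore and anaphase. Transcripts of both waves are abundant in dividing fibroblasts and fall when cells leave the cycle, which makes them a common readout of proliferation. In bulk RNA, fewer dividing cells and less of each transcript per dividing cell cannot be told apart.

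Values are linear MAS5 signal, scaled by the authors to the same trimmed mean on each array (150.07 to 150.08). Differences are Men1-complemented minus vector on the log2(signal + 16) scale, which understates the fold of dim probe sets. Each difference has its standard error (SE), 95% interval and p from limma, adjusted over the 12422 probe sets (threshold 0.05). Each gene is given by its brightest probe set on average, and others are named as second or dimmer probe sets. A probe set is called at control level in a group when it did not exceed, on either array of the group, the highest of 19 bacterial and yeast control probe sets. Replicates 1 and 2 had highest control signals of 25.9 and 27.4 in complemented cells, and of 15.9 and 20 in vector cells. The fibroblast marker Col1a1 (6176 to 7619 in complemented cells, 6057 to 7092 in vector cells) was the brightest of 10 in its list, of which 7 were above control level on all 4 arrays, while Thy1 and Fap were at it in both groups. Vim, also a fibroblast marker, read only 24.2 to 37.5 over the 4 arrays. Of 6 markers each of other cell types, those above control level on all arrays numbered 4 for blood, 4 for neural cells, 2 for skeletal muscle, 2 for epithelium and 1 for endothelium. Among the neural markers Nes read 1359 to 2233 and Tubb3 770.2 to 1194, while Snap25 and Nefl were at control level in both groups. Among the blood markers Cd14 read 218.3 to 257.8 over the 4 arrays and Ptprc, a general marker of white blood cells, 1.2 to 3.7. Summed signals of the blood markers were 434.1 and 445.4 in complemented cells, against 375.3 and 440.2 in vector cells. Those of the muscle markers were 243.5 and 188.8 in complemented cells, against 300.3 and 277.9 in vector cells, and 5 of 6 were lower. The summed signals of the fibroblast, neural, epithelium and endothelium markers overlapped between the groups. Myog, the muscle transcription factor myogenin, read 23.7 and 28.1 in complemented cells, against 68.1 and 53.3 in vector cells. It was the one marker at an unadjusted p under 0.05, which 1.68% of all genes reached. Its log2 difference was -0.87 (SE 0.20), with an unadjusted limma p of 0.00734 and an adjusted p of 1. The targeted gene, Men1, has 1 probe set here, which gave 18.8 and 22.5 in complemented cells, against 18.1 and 29.5 in vector cells, with a limma adjusted p of 1. It was at control level in complemented cells and above it in vector cells, at signals too close to the controls for a fold. It is not known here whether it lies in the deleted or the introduced sequence, so it is no check of the labels.

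No difference in replication and mitosis transcripts was detectable between Men1-complemented and vector fibroblasts with 2 arrays a group. No member probe set passed the limma threshold, as was the case for 0.0% of all probe sets, and the adjusted p was 1 for each. At an unadjusted p under 0.05 there were 0 of 66 members, against 1.88% of all probe sets, and the smallest member p was 0.0703. Of the 49 genes, 23 were higher and 26 lower in the Men1-complemented cells, where 47.0% of all genes were higher. The median log2 difference was -0.0061 for the members and -0.013 for all genes. The median absolute difference was 0.13 for both.

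The median differences of the G1/S and G2/M genes were small and of opposite sign. Of the G1/S genes 13 were higher and 10 lower (median log2 difference 0.055), and of the G2/M genes 10 were higher and 16 lower (median -0.075). Levels were also taken array by array, as the median over genes of the distance from each gene's mean on the log2 scale. For the G1/S genes these were 0.012 and 0.068 in complemented cells, against -0.011 and -0.067 in vector cells, with no overlap. For the G2/M genes they were -0.017 and 0.047 in complemented cells, against -0.039 and 0.043 in vector cells, which overlap. Their group means differed by 0.013, with complemented cells higher, while the mean over genes of the log2 difference was -0.028, so the sign of the G2/M genes depends on which summary is taken. The pooled SD of these levels between replicate arrays was 0.040 for the G1/S and 0.052 for the G2/M genes. Without the 3 G1/S genes at control level in both groups, a setting chosen after seeing the data, the G1/S median was 0.10. In that setting the array levels were -0.0133 and 0.096 in complemented cells, against 0.0209 and -0.0985 in vector cells, which overlap. With all 23 G1/S genes, the median was 0.11 without vector replicate 1 and 0.026 without vector replicate 2. The G2/M median was -0.0020 without Men1-complemented replicate 1, -0.036 without Men1-complemented replicate 2, -0.048 without vector replicate 1 and -0.022 without vector replicate 2.

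**Figure D1:**
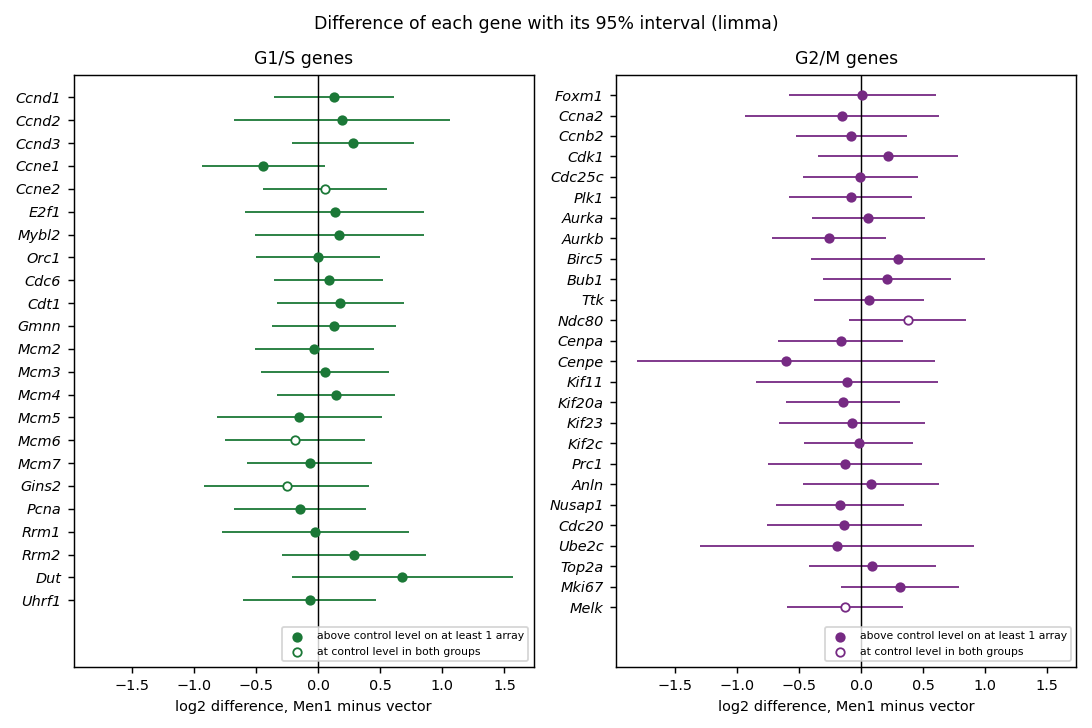
Log2 difference (Men1 minus vector) of each of the 23 G1/S and 26 G2/M genes, as points with 95% limma intervals. Open points are genes at control level in both groups. All 49 intervals include 0, and 45 lie between -1 and 1.

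Large differences lay outside the intervals of most members. The 95% interval lay between -1 and 1 on the log2 scale for 45 of 49 genes, against 79.8% of all genes. The exceptions were Dut, Ccnd2, Cenpe and Ube2c. The 45 include the 5 genes at control level in both groups. Their intervals are narrowed by the 16 added to each signal, so they say nothing on large differences. Among genes with a mean signal of at least 100 it was 38 of 40 members, against 87.7% of all such genes. The median lower bound was -0.52 and the median upper bound 0.55, so differences of a smaller size are within the error of these 4 arrays. These are intervals of single genes, not adjusted over the genes.

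All signals of a gene on the Men1-complemented arrays lay above, or all below, those on the vector arrays for 13 of the 49 genes (26.5%), against 22.1% of all genes. Counted over the 49 genes, 9 were higher without overlap, against 10.1% of all genes, and 4 were lower without overlap, against 12.0% of all genes. The 9 higher genes were Ccnd3, Cdc6, Mcm4, Rrm2 and Dut among the G1/S genes, and Bub1, Ttk, Ndc80 and Mki67 among the G2/M genes. The 4 lower genes were Ccne1, Aurkb, Kif20a and Melk. Ndc80 and Melk were at control level in both groups, so their order says little.

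**Figure D2:**
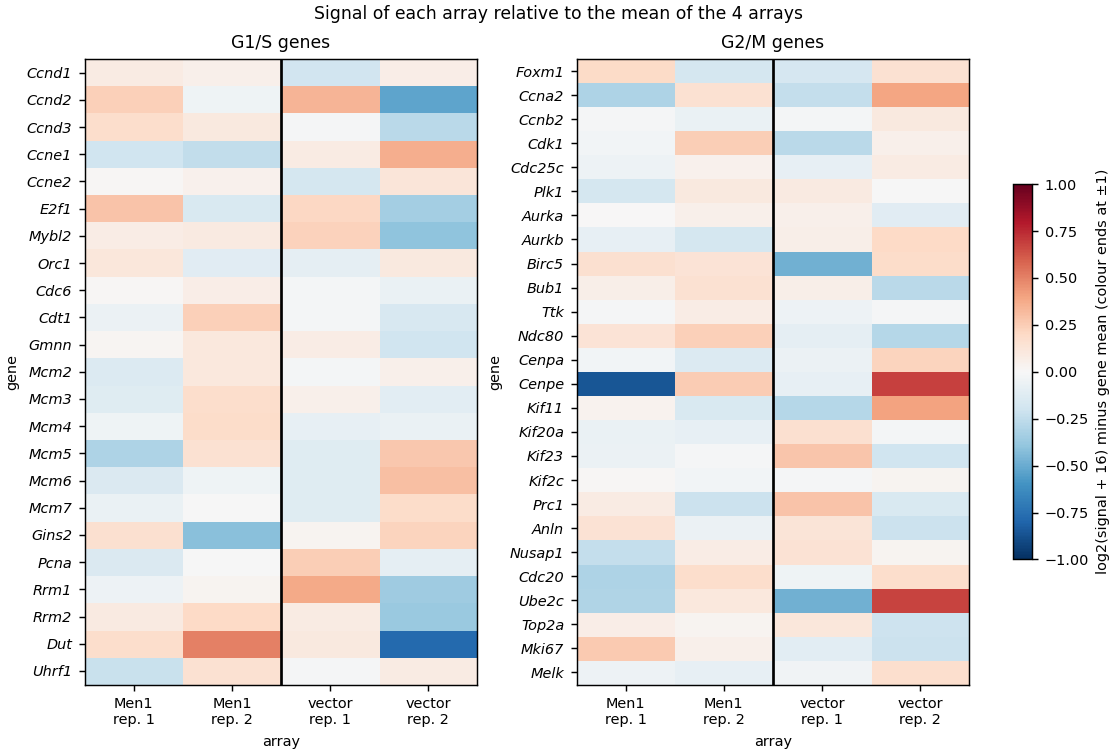
Log2(signal + 16) of each gene on each array, minus the mean of the gene over the 4 arrays, with the Men1-complemented arrays left of the black line and the vector arrays right of it. No block of genes has 1 colour left of the line and the other right of it, while Ccna2, Ube2c, Ccnd2 and E2f1 differ by replicate number in both groups.

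Promoter sequence, which the choice of members did not use, was searched for the elements known for each of the 2 waves. RefSeq promoter windows (GRCm38.p6, 250 bases before to 50 after the start site, in the sense of the gene) were found for 38 of the 49 genes, 42 windows in all. Both strands were searched. An E2F site was taken as TTGGCGC, or as the same letters with CG, CC or GC as the third and the fourth base. The NF-Y box was taken as CCAAT, which can share bases with an E2F match. The cell cycle genes homology region (CHR), which the MuvB complex binds, was taken as TTTGAA. The E2F letters stood in 12 of 20 windows of G1/S genes (60.0%) and 2 of 22 windows of G2/M genes (9.09%), against 14.8% of the 8413 windows of genes named on the array and 9.57% of all 32851 windows. The CHR letters stood in 17 of 22 windows of G2/M genes (77.3%) and 1 of 20 windows of G1/S genes (5.0%), against 12.9% and 17.9%. The NF-Y box was common to both, at 65.0% of G1/S and 72.7% of G2/M windows, against 37.0% and 37.4%. Median GC content was 62.2% for G1/S windows and 59.7% for G2/M windows, against 59.7% for genes named on the array and 52.7% for all windows.

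**Figure D3:**
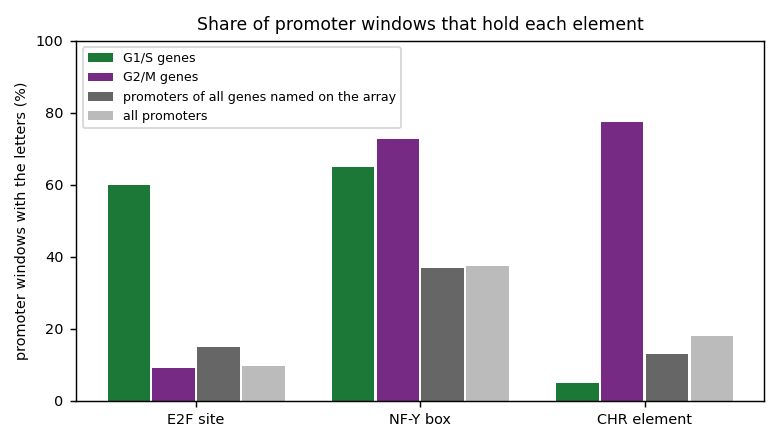
Percent of promoter windows that hold the E2F site, the NF-Y box and the CHR element, for G1/S genes (20 windows), G2/M genes (22 windows), genes named on the array and all windows. The E2F site is held by 60.0% of G1/S windows and the CHR element by 77.3% of G2/M windows.

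The 200 bases before the start site are shown for 5 members that are described again with their signals. Mcm5 and Rrm1 are replication genes with E2F letters and NF-Y boxes. Cdc20 has the NF-Y box and the CHR that are common among G2/M windows, and Cdk1 and Mki67 are the 2 of 22 G2/M windows that hold E2F letters as well. Capitals mark matches to any of the 3 elements on either strand, so that an element also appears as its reverse complement. E2F letters and an NF-Y match do not overlap in these 5 windows, whereas 2 E2F matches overlap each other in the second capital run of Mcm5.
Mcm5 (GRCm38.p6, chr8:75109309-75109508, plus strand): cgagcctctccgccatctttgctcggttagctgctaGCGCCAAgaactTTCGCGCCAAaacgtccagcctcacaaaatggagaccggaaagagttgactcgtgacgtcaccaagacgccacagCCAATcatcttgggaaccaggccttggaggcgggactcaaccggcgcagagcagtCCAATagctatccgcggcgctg
Rrm1 (GRCm38.p6, chr7:102441495-102441694, plus strand): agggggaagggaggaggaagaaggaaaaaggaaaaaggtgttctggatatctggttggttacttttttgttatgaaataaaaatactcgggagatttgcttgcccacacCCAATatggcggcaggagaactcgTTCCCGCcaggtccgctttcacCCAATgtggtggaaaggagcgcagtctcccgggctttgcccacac
Cdk1 (GRCm38.p6, chr10:69352913-69353112, minus strand): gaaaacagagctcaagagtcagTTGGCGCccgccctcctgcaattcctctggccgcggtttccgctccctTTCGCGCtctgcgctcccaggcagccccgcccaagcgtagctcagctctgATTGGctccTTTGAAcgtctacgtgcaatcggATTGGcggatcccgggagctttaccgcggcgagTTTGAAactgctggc
Cdc20 (GRCm38.p6, chr4:118437344-118437543, minus strand): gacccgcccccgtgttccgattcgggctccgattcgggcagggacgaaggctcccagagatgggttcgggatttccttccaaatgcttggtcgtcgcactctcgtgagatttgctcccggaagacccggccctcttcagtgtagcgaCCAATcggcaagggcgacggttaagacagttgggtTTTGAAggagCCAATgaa
Mki67 (GRCm38.p6, chr7:135716380-135716579, minus strand): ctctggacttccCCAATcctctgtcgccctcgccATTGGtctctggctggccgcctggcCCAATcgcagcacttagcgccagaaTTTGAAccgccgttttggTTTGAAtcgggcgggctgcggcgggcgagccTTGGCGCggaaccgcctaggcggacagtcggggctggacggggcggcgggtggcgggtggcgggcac

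The comparison of arrays was also divided by these letters, as a description with no test. The 10 G1/S genes with E2F letters had a median log2 difference of -0.015 (4 higher, 6 lower), and the 7 whose windows held none had 0.13 (4 higher, 3 lower). The 16 G2/M genes with the CHR letters had a median of -0.046 (7 higher, 9 lower), and the 5 whose windows held none had -0.13 (2 higher, 3 lower). The median of -0.13 is the value of Melk, which was at control level in both groups. Ndc80, among the genes with the CHR letters, and Mcm6, among those with E2F letters, were at control level in both groups as well. A window that holds no match says only that these letters are not in it.

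Among the G1 cyclins, Ccne1, cyclin E1, which activates Cdk2 for entry into S phase, had the smallest p of all members. It read 203.4 and 197.1 in complemented cells, against 250.2 and 308.7 in vector cells. Both Men1-complemented signals lay below both vector signals. The mean was 200.25 ± 4.45 in complemented cells and 279.45 ± 41.4 in vector cells (SD, n = 2 each). The log2 difference was -0.44 (SE 0.19, 95% interval -0.94 to 0.054), with an unadjusted limma p of 0.0703 and an adjusted p of 1. Ccne2, cyclin E2, was at control level in both groups, with 11.4 and 12 in complemented cells, against 8.1 and 13.5 in vector cells.

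The D-type cyclins, which pair with Cdk4 and Cdk6 and respond to mitogens, were all on the other side of 0. Ccnd3 read 514.4 and 485.7 in complemented cells, against 449 and 373.1 in vector cells, with no overlap (log2 difference 0.28, SE 0.19, 95% interval -0.21 to 0.77), with an unadjusted limma p of 0.202 and an adjusted p of 1. Ccnd1 read 1097 and 1073 in complemented cells, against 906.4 and 1086 in vector cells, which overlap, and its second probe set differed by 0.05. Ccnd2, which like Ccnd1 changed sign when single arrays were left out, read 1057 and 868.2 in complemented cells, against 1135 and 615.6 in vector cells, so that its largest gap was between the vector arrays.

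The transcription and chromatin regulators of this phase overlapped between the groups. E2f1, an activator of the S phase genes, read 139.2 and 98.8 in complemented cells, against 130.9 and 84.9 in vector cells. In both groups replicate 1 was the higher array. Mybl2, which encodes B-Myb, differed by 0.17 (SE 0.26) and its second probe set by 0.11. Uhrf1, which keeps DNA methylation through replication, differed by -0.07 (SE 0.21).

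Of the 4 genes of origin licensing, by which the helicase is loaded before S phase, 3 were higher and 1 lower (median log2 difference 0.10). No difference in this group exceeded its SE. Orc1, the largest subunit of the origin recognition complex, read 66.8 and 54.7 in complemented cells, against 56 and 66 in vector cells (log2 difference -0.0061, SE 0.19). Cdt1, a loading factor, read 844.2 and 1040 in complemented cells, against 869.6 and 785.7 in vector cells (0.18, SE 0.20). Its second probe set differed by -0.08, on the other side of 0, and read higher in replicate 2 of both groups. Cdc6, the other loading factor, differed by 0.08 (SE 0.17) with no overlap, at 208.4 and 216.8 in complemented cells, against 203.6 and 196.1 in vector cells. Gmnn, geminin, which binds Cdt1 and prevents a second licensing, differed by 0.13 (SE 0.19).

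The Mcm2 to Mcm7 subunits form the replicative helicase, and 5 of the 6 were above control level on every array. Mcm2 read 749.7 and 885.5 in complemented cells, against 811.3 and 856 in vector cells. The signals interleave, and the log2 difference was -0.03 (SE 0.19, 95% interval -0.51 to 0.45). Mcm3 differed by 0.05 (SE 0.20; 0.08 in its second probe set), Mcm4 by 0.14 (SE 0.18), Mcm5 by -0.15 (SE 0.26) and Mcm7 by -0.07 (SE 0.20). Mcm4 alone of these did not overlap, with 1071 and 1255 in complemented cells, against 1043 and 1056 in vector cells. Mcm6 was at control level in both groups, with 2.6 and 3.9 in complemented cells, against 2.9 and 9.3 in vector cells, and gives no information on that subunit. Gins2, a subunit of the GINS complex that joins the helicase at the fork, was also at control level, with 15.4 and 5.1 in complemented cells, against 12.7 and 16.9 in vector cells. A dim second probe set of Mcm5, not above the controls in complemented cells, gave 12.3 and 10.4 in complemented cells, against 44.5 and 12.5 in vector cells, and so was bright on vector replicate 1 only.

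Pcna, the sliding clamp of the polymerases, read 739.3 and 817.9 in complemented cells, against 972.9 and 767.2 in vector cells (log2 difference -0.15, SE 0.20). Rrm1 and Rrm2 encode the subunits of ribonucleotide reductase, which makes deoxynucleotides. Rrm2 read 1091 and 1179 in complemented cells, against 1087 and 788.7 in vector cells, with no overlap, although 1091 and 1087 are nearly equal (log2 difference 0.29, SE 0.23). Rrm1 read 894.9 and 947.2 on the Men1-complemented arrays, between the 1213 and 722.8 of the vector arrays (-0.02, SE 0.29).

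Dut, the dUTPase that keeps uracil out of DNA, had the largest difference among the G1/S genes. It read 32.9 and 45.4 in complemented cells, against 30.4 and 9.3 in vector cells. The groups did not overlap, but the gap rests on vector replicate 2, which was below its control of 20. The log2 difference was 0.68 (SE 0.34, 95% interval -0.21 to 1.57), with an unadjusted limma p of 0.107 and an adjusted p of 1. Without vector replicate 2 it was 0.24, and without vector replicate 1 it was 1.11.

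**Figure D4:**
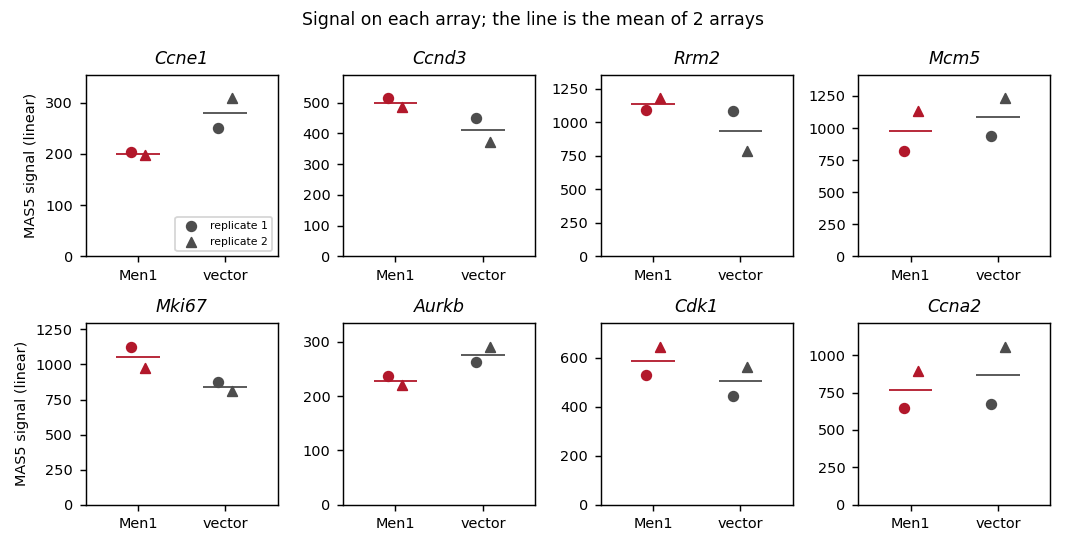
MAS5 signal (linear) of 8 members on each array, Men1-complemented left and vector right, with circles for replicate 1, triangles for replicate 2 and a line at the mean of 2 arrays. The 8 were picked after their values were seen. Ccne1 and Aurkb are lower and Mki67, Ccnd3 and Rrm2 higher on both Men1-complemented arrays, while Mcm5, Cdk1 and Ccna2 are higher in replicate 2 of both groups.

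Of the G2/M genes, Mki67, the proliferation marker Ki-67 that coats mitotic chromosomes, read 1127 and 972.8 in complemented cells, against 872.6 and 807.6 in vector cells. Both Men1-complemented signals lay above both vector signals, with means of 1050 ± 109 in complemented cells and 840.1 ± 46.0 in vector cells (SD, n = 2 each). The log2 difference was 0.31 (SE 0.18, 95% interval -0.16 to 0.79), with an unadjusted limma p of 0.151 and an adjusted p of 1. A dim second probe set read 35.9 and 37.7 in complemented cells, against 20.3 and 63.9 in vector cells and differed by -0.03 (SE 0.40). Top2a, topoisomerase II alpha, which untangles sister chromatids, read 697.6 and 678.1 in complemented cells, against 722.9 and 576.1 in vector cells (0.09, SE 0.20).

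Regulators of mitotic entry overlapped between the groups in their representing probe sets. Foxm1, the forkhead activator of G2/M genes, read 1277 and 985.8 in complemented cells, against 995.2 and 1245 in vector cells (log2 difference 0.011, SE 0.23). Its second probe set read 616.9 and 490.4 in complemented cells, against 483 and 393.7 in vector cells. These did not overlap and differed by 0.32 (SE 0.22). Cdk1, the mitotic cyclin-dependent kinase, differed by 0.22 (SE 0.22), and its cyclins Ccna2 and Ccnb2 by -0.15 (SE 0.30) and -0.08 (SE 0.17). Cdc25c, the phosphatase that activates Cdk1, differed by -0.0052 (SE 0.18) and -0.01 in its 2 probe sets.

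The mitotic kinases gave differences of both signs. Aurkb, the kinase of the chromosomal passenger complex, read 236.5 and 220.2 in complemented cells, against 261.7 and 291 in vector cells. The groups did not overlap, and the log2 difference was -0.26 (SE 0.18, 95% interval -0.72 to 0.20), with an unadjusted limma p of 0.207 and an adjusted p of 1. Its partner Birc5, survivin, read 369.1 and 362.8 in complemented cells, against 231.3 and 375.4 in vector cells, and only vector replicate 1 was low (0.30, SE 0.27). Without vector replicate 1 its difference was -0.04, and without vector replicate 2 it was 0.63. Plk1, which acts from mitotic entry to cytokinesis, read 828.5 and 1004 in complemented cells, against 1001 and 935.7 in vector cells (-0.08, SE 0.19). Its other probe sets differed by 0.28 (SE 0.18), with no overlap, and by -0.14 (SE 0.29), with overlap, so the probe sets disagree in sign. Aurka, the centrosome kinase, differed by 0.06 (SE 0.18), and Melk was at control level in both groups.

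At the kinetochore, Bub1, a checkpoint kinase, read 214.5 and 229.5 in complemented cells, against 214 and 167.9 in vector cells (log2 difference 0.21, SE 0.20). The 2 dimmer probe sets of Bub1 differed by 0.16 and 0.26, in the same direction. Ttk, the Mps1 kinase of the same checkpoint, differed by 0.07 (SE 0.17). Cenpa, the histone H3 variant of centromeres, read 143.1 and 130.8 in complemented cells, against 139.4 and 172.9 in vector cells (-0.16, SE 0.19). Ndc80, the microtubule anchor, had the smallest p of the G2/M genes (an unadjusted limma p of 0.0953, with an adjusted p of 1) at signals of 11.3 and 13.3 in complemented cells, against 7.3 and 4.4 in vector cells. All 4 were at control level, and the log2 difference was 0.38 (SE 0.18, 95% interval -0.096 to 0.85). Cenpe, the kinetochore motor, was at control level in complemented cells, with 1 and 20.7 there against 13.1 and 33.4 in vector cells, which overlap (-0.60, SE 0.46).

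The spindle and cytokinesis genes comprised 7 members, of which 1 was higher and 6 lower (median log2 difference -0.12). Kif11, the motor that separates spindle poles, read 149 and 129.2 on the Men1-complemented arrays, between the 116.3 and 196.8 of the vector arrays. Kif20a, a cytokinesis motor, read 769.1 and 759.6 in complemented cells, against 903.4 and 794.6 in vector cells with no overlap (-0.15, SE 0.18). Its second probe set overlapped and differed by -0.09. Nusap1, a spindle-associated protein, read 209.9 and 264.4 in complemented cells, against 278.7 and 256 in vector cells (-0.17, SE 0.20). Kif23, Kif2c and Prc1, which act at the midzone, at microtubule ends and in bundling, differed by -0.07, -0.02 and -0.13, and Anln, anillin of the contractile ring, by 0.08. No difference in this group exceeded its SE.

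Both genes of mitotic exit varied with replicate number. Cdc20, the activator of the anaphase-promoting complex, read 846.6 and 1196 in complemented cells, against 1026 and 1192 in vector cells (log2 difference -0.13, SE 0.24). Ube2c, the ubiquitin-conjugating enzyme of that complex, read 88.2 and 122.5 in complemented cells, against 76.2 and 189.2 in vector cells (-0.20, SE 0.43). In both genes and both groups replicate 2 was the higher array.

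Many members differed as much by replicate number as by group, as did many of all genes, and these shares were not compared by a test. For 27 of 49 members (55.1%) the mean difference of replicate 1 minus replicate 2 was larger in size than the difference between the groups, against 62.7% of all genes. Both groups had the same sign of that difference for 22 of 49 members (44.9%), against 56.9% of all genes. The following were picked after seeing the values. Ccna2, cyclin A2, read 643.4 in replicate 1 and 890.8 in replicate 2 of the complemented cells, against 674.3 and 1057 in the vector cells. Mcm5 read 819.5 and 1135 in complemented cells, against 937.2 and 1232 in vector cells. Cdk1 read 529.7 and 644.7 in complemented cells, against 444.7 and 562 in vector cells. In these 3 genes replicate 2 was the higher array in both groups, as in Cdc20 and Ube2c. Prc1 ran the other way, with 804 and 649.8 in complemented cells and 927.9 and 678.5 in vector cells, as did Anln, E2f1 and Ccnd2, so neither wave had 1 sign throughout. The median absolute difference between the 2 arrays of a group was 0.14 (Men1-complemented) and 0.29 (vector) for the G1/S genes and 0.11 and 0.25 for the G2/M genes, against 0.20 and 0.31 for all genes. The labels do not say what a replicate number marks.

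**Figure D5:**
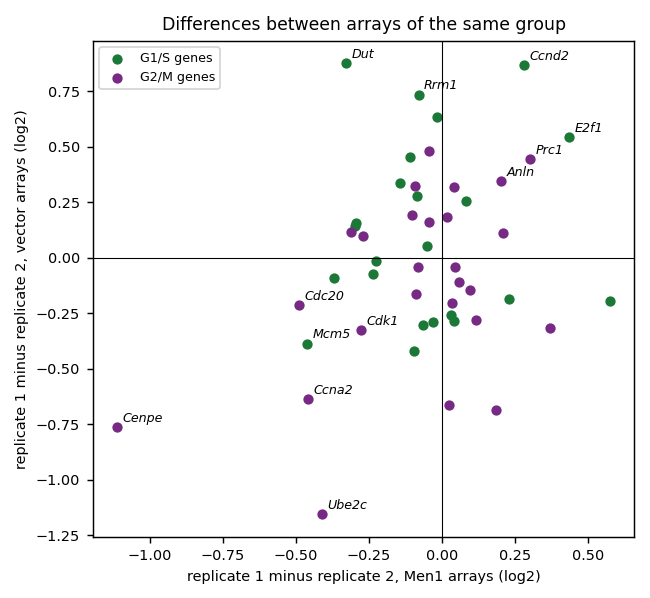
Replicate 1 minus replicate 2 of each member on the log2(signal + 16) scale, for the Men1-complemented arrays (horizontal) and the vector arrays (vertical). Ube2c, Ccna2, Mcm5, Cdk1 and Cdc20 are negative on both axes, and Ccnd2, E2f1, Prc1 and Anln positive on both.

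Further genes of the same pathways, which are no members, were read from the same fit. Of 40 measured of 53 other replication genes 19 were higher and 21 lower (median log2 difference -0.014), and of 38 measured of 51 other mitosis genes 18 were higher and 20 lower (median -0.018). None passed the limma threshold, and 0 reached an unadjusted p under 0.05, against 1.68% of all genes. Groups did not overlap for 11 of the 40 replication genes (3 higher, 8 lower) and for 12 of the 38 mitosis genes (3 higher, 9 lower), against 22.1% of all genes (10.1% higher, 12.0% lower). Among the members the larger number was higher, with 9 against 4 lower; the difference between these lists was not tested. The smallest p among replication genes was that of Prim1, the catalytic subunit of primase, which read 101.7 and 91.2 in complemented cells, against 123.8 and 152 in vector cells (-0.45, SE 0.19, limma adjusted p = 1). Rbl2, the pocket protein p130 of resting cells, and E2f5, a repressor that pairs with it, differed by -0.32 (SE 0.18) and -0.33 (SE 0.18). Among mitosis genes Zw10, a kinetochore protein, differed by 0.51 (SE 0.21, limma adjusted p = 1), Ccng2, a cyclin of arrested cells, by -0.37 (SE 0.22) and Nek2, a centrosome kinase, by -0.24 (SE 0.17).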

How the data were processed

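Expression was measured on 4 Affymetrix arrays, 2 of Men1-complemented and 2 of vector cells. The deposited unit is linear intensity per probe set. The submitters' processing notes name MAS5 and Affymetrix Expression Console, with version and scaling target not given in the sources used here. Between arrays, 75th percentiles differed by 0.067 on the log2 scale, under the limit set for normalizing further, so none was applied. Median signals were further apart, at 54.3 and 55.65 in complemented and 50.0 and 62.4 in vector cells, and quantile normalization was an alternative. Detection calls were not used here, and the number of arrays limits the precision.

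Of 12488 probe sets, 66 controls were left out. In the platform annotation 10833 of the rest had 1 gene symbol, 396 had several and were not named, and 1193 had none. Symbols were updated by gene ID through a RefSeq table (GRCm38.p6).

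log2(signal + 16) was fitted by limma 3.58.1 (lmFit, then eBayes; R 4.3.3) with 2 residual and 2.87 prior degrees of freedom, two-sided, with Benjamini-Hochberg adjustment over 12422 probe sets. The fit was also run on simulated data, as a check of the code. These had the same normal noise for every probe set and planted differences of at least 1 on the log2 scale. That run says nothing on smaller differences or on unequal noise. Other alternatives were a pseudocount of 1, a mean signal of at least 50, a replicate block, an intensity trend, single arrays left out and the mean of all probe sets of a gene.

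Members, lists, settings and naming rules were chosen with earlier results of these data known. Signals are given for Mki67, the first gene of each role group and, in each phase and direction, the 4 genes of smallest p, with full statistics for the 3 of smallest p in each phase. Up to 3 other replication and 3 other mitosis genes are named by smallest p. Other genes were picked after their values were seen. Promoter windows are those of RefSeq, described without a test.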

Additional observations from a re-analysis of the deposited data

How the results depend on the processing

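No member passed the adjusted threshold in any setting run, and the lowest adjusted limma p of a member gene was 0.576, without vector replicate 1. The number of all probe sets at an unadjusted p under 0.05, 233 as reported, was 67 among those with a mean signal of at least 50 and 121 to 1031 without single arrays, the highest without vector replicate 1. For all probe sets the number was 334 with a pseudocount of 1 and 297 with a replicate block. With 1 array left in a group, its spread was taken to equal that of the other group. The number of member probe sets at that p, 0 as reported, was 1 with a pseudocount of 1 (Ndc80), 1 with a replicate block (Cenpe) and 0 to 3 without single arrays. The median log2 difference of the G1/S genes was 0.026 to 0.11 without single arrays and 0.10 without genes at control level in both groups, against 0.055 as reported. That of the G2/M genes was -0.048 to -0.0020 without single arrays, against -0.075 as reported, and that of the other mitosis genes -0.09 to 0.0091 without single arrays. The median of the other replication genes was 0.019 with quantile normalization and -0.014 as reported. In this balanced design a replicate block alters the error of a difference and cannot alter its value. The deviations of same-numbered arrays correlated across all probe sets (r = 0.26, 0.29 across the member genes), genes not being independent replicates. For the G1/S genes r was 0.092 and for the G2/M genes 0.44. With a mean signal of at least 100, r was 0.35 across the member genes, against 0.43 across all probe sets. Signs changed in 46 values of 30 named genes, 3 of these values outside the settings that leave out an array. With quantile normalization Orc1 was 0.019 and Cdc25c 0.018, and with the mean of all probe sets Plk1 was 0.018, each of opposite sign to the value reported. Without single arrays the sign was not kept, over these ranges, by Ccnd1 -0.0011 to 0.26, Ccnd2 -0.24 to 0.62, Ccne2 -0.091 to 0.20, E2f1 -0.14 to 0.40, Mybl2 -0.15 to 0.49, Orc1 -0.12 to 0.11, Gmnn -0.014 to 0.26, Mcm2 -0.15 to 0.086, Mcm3 -0.10 to 0.20, Mcm5 -0.38 to 0.078, Mcm6 -0.40 to 0.026, Mcm7 -0.22 to 0.082, Gins2 -0.54 to 0.031, Pcna -0.32 to 0.019, Rrm1 -0.39 to 0.34, Uhrf1 -0.26 to 0.11, Foxm1 -0.17 to 0.20, Ccna2 -0.47 to 0.16, Cdc25c -0.087 to 0.076, Plk1 -0.22 to 0.052, Aurka -0.023 to 0.14, Birc5 -0.035 to 0.63, Kif11 -0.46 to 0.23, Kif23 -0.31 to 0.17, Kif2c -0.041 to 0.0016, Prc1 -0.35 to 0.089, Anln -0.093 to 0.25, Cdc20 -0.38 to 0.11, Ube2c -0.77 to 0.38, Top2a -0.070 to 0.25. The cause of these changes was not tested. Signals near the controls limit Ccne2, Mcm6, Gins2, Ndc80, Melk, Cenpe and Dut.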
